A study of Mus musculus with 24 samples.

Results

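The genes described here encode the subunits of the mitochondrial respiratory chain and of ATP synthase, with the assembly factors that share their names. They were chosen by mouse gene symbol (beginning Nduf, Uqcr, Atp5 or mt-, any of *Sdha* to *Sdhd*, or beginning Cox4 to Cox8) and by a count of at least 240 summed over the 24 libraries. Of the 22274 genes in the deposited table, 108 symbols matched and 104 passed the count minimum, 91 of them nuclear and 13 encoded by the mitochondrial genome. The 4 left out were *Cox7b2* with 25 counts, *Cox8b* with 111, and *Cox8c* and a duplicate *Atp5o* entry with 0 each. The RNA came from male C57BL/6J mice that had a sham operation or an electrical lesion of the pituitary stalk (PEL, a model of hypothalamic injury), and 8 groups of 3 libraries were sequenced. In the hypothalamus, from tissue holding the supraoptic and paraventricular nuclei, the groups were Sham, PEL_3d and PEL_10d (3 and 10 days after PEL), and the same 3 with GH (Sham_GH, PEL_3d_GH and PEL_10d_GH), whose dose is not given in the labels. In the hippocampus the groups were HIP_Sham and HIP_PEL_10d. The labels do not say that the 3 libraries of a group came from separate animals, so every p-value measures the spread between these libraries, which may be technical.

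The respiratory chain sits in the inner mitochondrial membrane, where complexes I and II take electrons from NADH and succinate, complex III passes them to cytochrome c, and complex IV hands them to oxygen. Complexes I, III and IV pump protons, and ATP synthase, complex V, uses the returning protons to make ATP. Complex II is wholly nuclear encoded, while the others combine nuclear subunits with a few made from mitochondrial DNA, and neurons, which spend much ATP on ion gradients and synaptic transmission, depend heavily on this chain. The nuclear members comprised 37 subunits of complex I and 8 of its assembly factors, 4 subunits of complex II, 8 of complex III, 16 of complex IV, 16 of complex V, the supercomplex factor *Cox7a2l* and the coupling factor B gene *Atp5s*. The mitochondrial members comprised 7 subunits of complex I, 1 of complex III, 3 of complex IV and 2 of complex V.

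A pair of libraries went against their tissue labels by *Avp*, and the comparisons that rest on them are given with and without them. The groups follow the sample titles, and the title of HIP_Sham 3 places it in the hippocampus while its source and tissue fields read hypothalamus. *Avp*, the vasopressin precursor of the magnocellular hypothalamus, stood at 0.453 FPKM (fragments scaled to transcript length and library depth) in Sham 1, against 140 and 223 in Sham 2 and Sham 3. In HIP_Sham 1 it was 139 FPKM, against 0.113 in HIP_Sham 2 and 0.309 in HIP_Sham 3. The respiratory chain genes did not tell the tissues apart as clearly. Of 65 members that differed between PEL_10d and HIP_PEL_10d, 45 were nearer the HIP_PEL_10d mean in Sham 1, against 6 in Sham 2 and 14 in Sham 3, but so were 42 in PEL_3d_GH 3, 37 in PEL_3d 2, 28 in PEL_3d_GH 1 and 26 in PEL_3d 3. In HIP_Sham 1, 44 were nearer the PEL_10d mean, against 5 in HIP_Sham 2 and 9 in HIP_Sham 3. Comparisons with Sham therefore used Sham 2 and Sham 3, unless stated otherwise. Total counts ran from 15095267 to 17973494 per library, of which the 13 mitochondrial members took 6.54% to 8.84%.

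Per unit of length, the mitochondrially encoded transcripts other than *mt-Atp8* stood above the nuclear ones in both tissues. Over the 24 libraries the highest median was that of *mt-Co1*, the catalytic subunit of complex IV, with 17415 FPKM and a range of 15652 to 20241. It was followed by *mt-Co3* with 11050, *mt-Co2* with 7527, *mt-Atp6* with 7353, *mt-Cytb* with 6895 and *mt-Nd1* with 6572. Of the 13, *mt-Nd6* with 1281, *mt-Nd4l* with 1215 and *mt-Atp8* with 343 had the lowest medians. *mt-Nd6* is the only protein gene on the other strand of the mitochondrial genome, and its end overlaps that of *mt-Nd5*. Whether reads were counted by strand is not given in the sources used here, so reads of these genes cannot be told apart where they overlap. *mt-Atp8* overlaps *mt-Atp6*, and *mt-Nd4l* overlaps *mt-Nd4*, on the same strand, which limits their counts and FPKM values as measures of level.

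The nuclear members were led by the catalytic core of ATP synthase. *Atp5b*, which encodes its beta subunit, had a median of 560 FPKM, and *Atp5a1*, which encodes the alpha subunit, had 352. The most abundant nuclear subunits of complex IV were close to *Atp5a1*, with *Cox8a* at 348 and *Cox4i1* at 338 FPKM. Complex I subunits ran from 25.3 FPKM (*Ndufb1-ps*) to 120 (*Ndufb8*), complex II from 47.3 (*Sdhc*) to 166 (*Sdha*), and complex III from 59.4 (*Uqcr11*) to 168 (*Uqcrh*). The assembly factors, which help build complex I without staying in it, were lower, from 4.09 (*Ndufaf6*) to 20.2 (*Ndufaf5*).

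The common isoforms of complex IV predominated in both tissues. The isoforms known from heart and muscle, *Cox6a2* and *Cox7a1*, had medians of 1.14% of the FPKM of *Cox6a1* and 2.28% of that of *Cox7a2*. *Cox4i2*, the form induced by low oxygen, stood at 0.257% of *Cox4i1* and never above 0.571%. *Cox6b2*, the testis form, had a median of 2.05% of *Cox6b1*, with its highest value of 6.16%, and *Ndufa4l2*, a hypoxia-induced relative of *Ndufa4*, had 1.02%. At these levels a library held few reads, and fold changes of these 5 genes are correspondingly imprecise. *Cox7a1*, for example, had 0, 6 and 4 counts in the HIP_PEL_10d libraries.

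**Figure D1:**
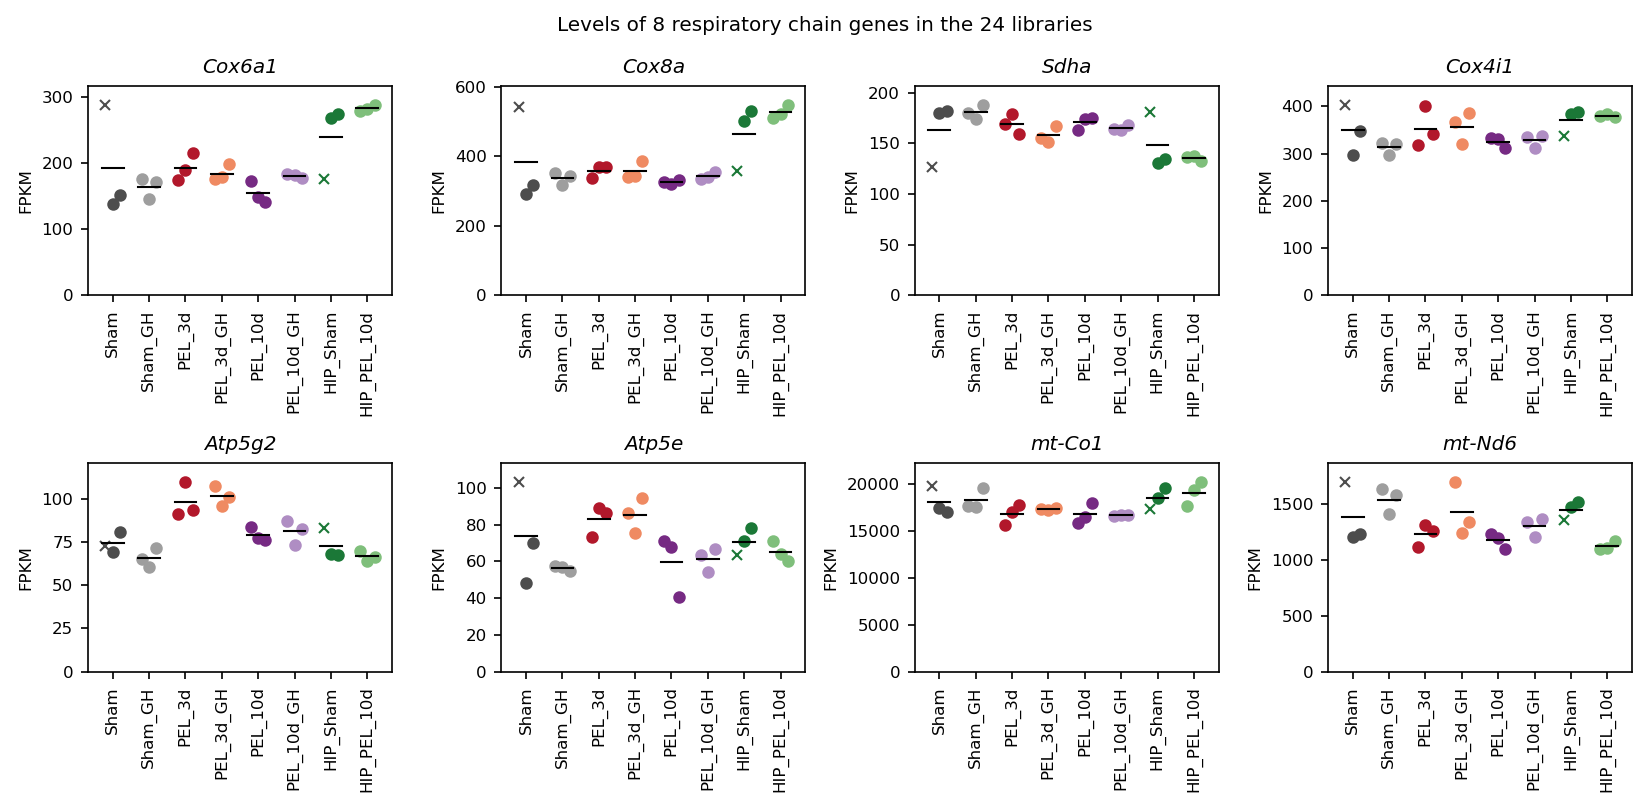
FPKM of single members (vertical axes) in each library of the 8 groups (horizontal axes), with the mean of all 3 libraries as a bar and an x for Sham 1 and HIP_Sham 1. *Cox6a1* and *Cox8a* sit higher in HIP_PEL_10d than in every hypothalamic library other than Sham 1, and *Atp5g2* sits higher in the PEL_3d libraries than in Sham.

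The comparison of the 2 tissues 10 days after PEL asked how respiratory chain expression differed between hypothalamus and hippocampus, and it gave the most calls. Of 89 nuclear members tested, 52 were lower in PEL_10d than in HIP_PEL_10d and 2 were higher (edgeR's quasi-likelihood test, adjusted p under 0.05). Of all genes tested, 29.7% were lower and 30.9% higher. Of the 13 mitochondrial members, 11 were lower and 0 higher. The median log2 difference was -0.30 over the nuclear members and -0.43 over the mitochondrial ones, beside 0.02 over all genes tested. Libraries did not overlap between the groups for 63 nuclear and 11 mitochondrial members that were lower and for 4 nuclear members that were higher, against 33.7% and 34.4% of all genes.

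Lower members were found in every complex. Of the complex I subunits 17 of 37 were lower, of the assembly factors 4 of 8, of complex III 6 of 8, of complex IV 12 of 14 tested, and of complex V 12 of 16. Complex II, whose subunits also belong to the tricarboxylic acid cycle, had 1 lower and 1 higher of 4. Median log2 differences were -0.25 for complex I, -0.34 for complex III, -0.52 for complex IV and -0.33 for complex V, and -0.02 for complex II.

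The member lower by most was *Cox6a1*, the common form of a small regulatory subunit of complex IV. It measured 173, 148 and 141 FPKM in PEL_10d and 278, 282 and 288 FPKM in HIP_PEL_10d. Every hippocampal value lay above every hypothalamic one, with a log2 difference of -1.12 (SE 0.08, adjusted p = 2.79e-06). *Cox8a*, the smallest subunit of complex IV, had 327, 321 and 331 FPKM in PEL_10d against 510, 523 and 547 in HIP_PEL_10d. The groups were as far from overlapping, and the log2 difference was -0.94 (SE 0.06, adjusted p = 1.71e-06). *Cox6a2*, the muscle form of *Cox6a1*, at far lower levels, was lower by -1.12 (SE 0.27, adjusted p = 0.00552). Between Sham and HIP_Sham, without Sham 1 and HIP_Sham 1, *Cox6a2* did not pass (log2 difference -0.14, SE 0.39, adjusted p = 0.775). Both libraries that went against their labels lay near the other tissue, since Sham 1 had 288 FPKM of *Cox6a1* and 541 of *Cox8a*, and HIP_Sham 1 had 175 and 359.

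The promoters of *Cox6a1* and *Cox8a* are shown because, of the subunits above 100 FPKM, these differed most between the tissues. Each is the 250 bases before the RefSeq start of the gene on GRCm38.p6, minus strand, at chr5:115348959-115349208 and chr19:7217617-7217866. Capitals mark the core sequence GCGCATGC of nuclear respiratory factor 1 (NRF1), searched on both strands, whose 2 matches overlap where the run is palindromic.
Cox6a1: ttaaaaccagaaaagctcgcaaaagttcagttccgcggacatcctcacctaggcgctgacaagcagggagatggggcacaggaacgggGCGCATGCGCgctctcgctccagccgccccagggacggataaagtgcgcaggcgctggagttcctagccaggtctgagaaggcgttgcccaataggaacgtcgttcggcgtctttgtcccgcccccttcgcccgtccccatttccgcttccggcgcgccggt
Cox8a: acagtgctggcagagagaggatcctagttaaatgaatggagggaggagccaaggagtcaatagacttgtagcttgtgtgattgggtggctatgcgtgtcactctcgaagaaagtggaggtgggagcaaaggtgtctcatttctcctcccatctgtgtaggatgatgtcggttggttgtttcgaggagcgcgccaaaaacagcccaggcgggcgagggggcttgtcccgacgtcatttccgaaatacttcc
The *Cox6a1* match lies 162 bases before the start, and the *Cox8a* stretch holds neither this core nor the ETS core CCGGAAGT. RefSeq promoters of 300 bases (250 before and 50 after the start) were matched for 75 of the 91 nuclear members. The NRF1 core occurred in 12 of them (16.0%), against 3.05% of the promoters of all 27025 genes. The ETS core occurred in 5 (6.67%), against 4.31% of all.

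Of 37 nuclear complex I subunits 17 were lower in the hypothalamus. *Ndufb9*, of the membrane arm, had 84.5, 86.0 and 79.0 FPKM in PEL_10d and 111, 121 and 113 in HIP_PEL_10d. With no overlap, its log2 difference was -0.71 (SE 0.07, adjusted p = 1.68e-05). *Ndufa10*, an accessory subunit of the membrane arm, measured 53.8, 53.8 and 52.2 against 67.8, 73.6 and 71.6 FPKM (log2 difference -0.66, adjusted p = 1.34e-05). *Ndufa4*, named for complex I but a component of complex IV, showed a log2 difference of -0.60.

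In ATP synthase both catalytic core genes were lower. *Atp5b* had 508, 522 and 528 FPKM in PEL_10d and 604, 631 and 595 in HIP_PEL_10d, a log2 difference of -0.48. *Atp5a1* had 333, 350 and 345 FPKM against 363, 375 and 357, a smaller difference of -0.34 on the log2 scale, with the libraries again apart. *Atp5d*, the delta subunit of the central stalk, differed by -0.58. *Cox4i1*, a nuclear subunit of complex IV that binds regulatory nucleotides, differed by -0.47.

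Of the nuclear members 2 were higher in PEL_10d than in HIP_PEL_10d. One was *Sdhc*, a membrane anchor of complex II, with 51.3, 53.6 and 38.2 FPKM against 29.6, 32.0 and 34.1 (log2 difference 0.20, SE 0.07, adjusted p = 0.0366). The other was *Cox6b2*, with 3.10, 2.10 and 2.99 FPKM against 0.651, 0.925 and 0.842 (log2 difference 1.59, SE 0.36, adjusted p = 0.00408), on only 5, 8 and 6 counts in the hippocampal libraries. Neither passed between Sham and HIP_Sham without Sham 1 and HIP_Sham 1, where *Cox6b2* turned to -0.61 (adjusted p = 0.197) and *Sdhc* stood at 0.09 (adjusted p = 0.285). *Sdhb*, the iron-sulfur subunit of complex II, was lower by -0.21 on the log2 scale in PEL_10d. It did not pass between those Sham libraries (-0.12, adjusted p = 0.148). *Atp5g2*, for a copy of the c-ring subunit of ATP synthase, did not pass, with a log2 difference of 0.00 and a 95% interval of -0.15 to 0.15.

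The mitochondrially encoded subunits all had negative log2 differences, and 11 of the 13 passed. *mt-Co1* had 15843, 16416 and 17935 FPKM in PEL_10d and 17665, 19305 and 20241 in HIP_PEL_10d. The deposited FPKM values of the groups overlapped, while on the scale normalised by trimmed mean of M values (TMM) the log2 difference was -0.43 (adjusted p = 0.00141). *mt-Atp8* differed most of the 13, with 272, 277 and 366 FPKM against 347, 481 and 460 and a log2 difference of -0.74 (SE 0.15, adjusted p = 0.00217). *mt-Nd6* differed least of the 11 that were called, by -0.18 (adjusted p = 0.0397).

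**Figure D2:**
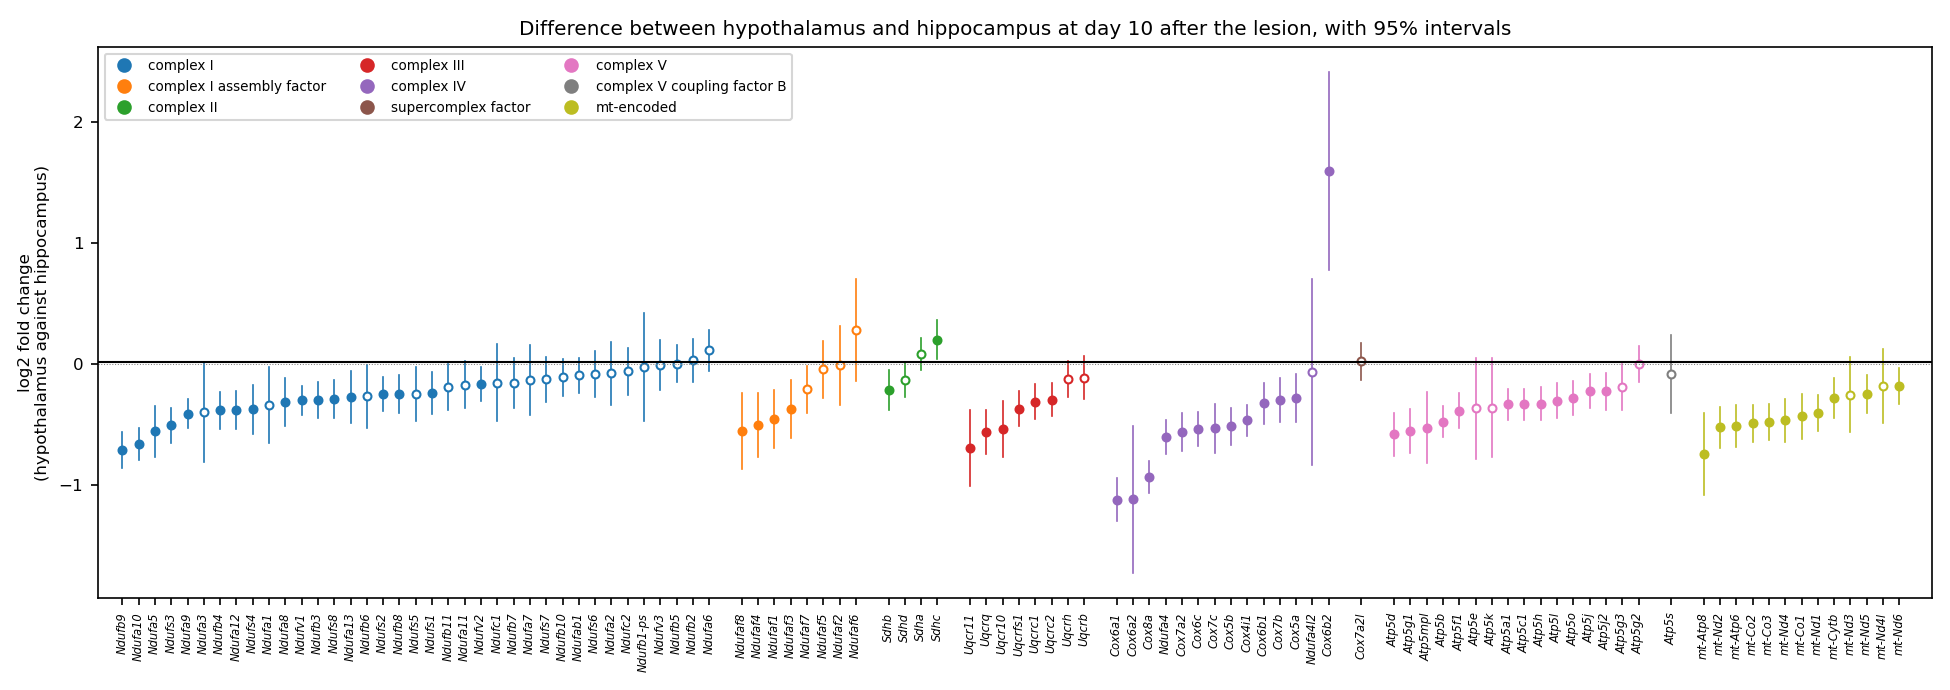
Log2 difference of each member between PEL_10d and HIP_PEL_10d (vertical axis, negative values lower in the hypothalamus) with its 95% interval, by complex along the horizontal axis, with filled points past the threshold and the median of all genes as a line. Most nuclear and all mitochondrially encoded members lie below the all-gene median of 0.02, while complex II is spread around it.

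The size of this difference depended on the scaling. Scaled to total counts, the median of all genes moved to 0.26 and that of the nuclear members to -0.05, and 20 nuclear members were lower and 10 higher, with 8 mitochondrial members lower, against 17.8% of all genes lower and 47.0% higher. A scaling shifts all genes of a library alike, so the distance from the all-gene median is the same under each and is no test of stability. That distance was -0.31 for the nuclear median, and 82 of 89 nuclear and 13 of 13 mitochondrial members lay below the all-gene median.

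The tissues were also compared in their Sham libraries, without Sham 1 and HIP_Sham 1. There 46 of 91 nuclear members were lower in the hypothalamus and 1, *Sdha*, was higher (log2 difference 0.24, adjusted p = 0.00123), and 13 of 13 mitochondrial members were lower, against 27.9% of all genes lower and 27.2% higher. Of the nuclear members, 42 were lower in both comparisons, which is 80.8% of the 52 and 91.3% of the 46. *Cox6a1* differed by -1.12 and *Cox8a* by -0.97 in these libraries. With Sham 1 and HIP_Sham 1 included, 0 members passed (0 also at an unadjusted p under 0.05), as did 0.0% of all genes, and *Cox6a1* differed by -0.41 (adjusted p = 0.899). Choroid plexus markers differed strongly between these Sham libraries. Without the pair, 9 of 9 were lower in the hypothalamus, and their sum was 123 and 125 CPM in Sham 2 and Sham 3 against 6273 and 7774 in HIP_Sham 2 and HIP_Sham 3. Of the other lists, 9 of 9 oligodendrocyte markers, 5 of 14 microglial, 7 of 14 neuronal and 2 of 9 astrocyte markers were lower and 0, 1, 5 and 5 higher. Their part in the result was not tested. Lower in both and also under total-count scaling were 19 nuclear members, among them *Cox6a1*, *Cox8a*, *Cox4i1*, *Ndufb9*, *Ndufa10*, *Uqcr11*, *Atp5b* and *Atp5d*, and 8 mitochondrial ones. No share of all genes is given for these joint counts or for the 42 above, so they stand without a background.

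Other genes of energy metabolism differed between the tissues as well. Of 15 tricarboxylic acid cycle genes 12 were lower in PEL_10d and 1 was higher, and of 78 mitochondrial ribosomal proteins 32 were lower and 1 higher. *Cyc1*, for cytochrome c1 of complex III, and *Usmg5*, for an ATP synthase subunit, fall outside the symbol rule. They differed by -0.46 and -0.41 on the log2 scale. *Cycs*, which encodes cytochrome c, differed by -0.60. *Esrra*, a nuclear receptor that drives mitochondrial genes, differed by -0.77 (adjusted p = 0.000133) and was the only 1 of 8 regulators of mitochondrial biogenesis that passed. Of 80 cytosolic ribosomal proteins, in contrast, 43 were higher and 3 lower. Markers of cell types moved with the tissues too. Of 14 neuronal markers 9 were lower and 3 higher in PEL_10d, with summed levels of 5068 to 5760 CPM (counts scaled to library depth) against 9665 to 10377, while 12 of 14 microglial and 7 of 9 astrocyte markers were higher. Of 8 choroid plexus markers tested 4 were lower and 1 higher in PEL_10d, with sums of 102 to 111 CPM against 86.3 to 1169, and *Ttr* among them differed by -5.85 (adjusted p = 0.00214). Their part in the result was not tested, and in bulk tissue fewer cells of a type and less RNA per cell cannot be told apart.

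The comparison of PEL_3d with Sham asked how these genes stood in the hypothalamus 3 days after the lesion. Compared with Sham 2 and Sham 3, 9 of 91 nuclear members were higher in PEL_3d and 0 lower, against 22.2% and 18.2% of all genes, so the share called was below the background. Of the 13 mitochondrial members 0 were higher and 2 lower. The nuclear median log2 change was 0.09, the mitochondrial -0.07 and that of all genes -0.01.

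The 9 that rose belonged to complexes II, III, IV and V. *Atp5g2* had 91.2, 110 and 93.5 FPKM in PEL_3d and 72.9, 69.5 and 80.5 in the 3 Sham libraries. All PEL_3d values lay above all Sham values, and the log2 change was 0.37 (SE 0.10, adjusted p = 0.0152). *Cox6a1* measured 174, 189 and 216 FPKM against 138 and 152 in Sham 2 and Sham 3, a log2 change of 0.40 (SE 0.10, adjusted p = 0.00822). With Sham 1, which held 288 FPKM, its change was -0.04 (adjusted p = 0.959). *Atp5e*, the epsilon subunit of the central stalk, had 73.4, 89.0 and 86.4 FPKM against 48.5 and 69.8 (log2 change 0.47, SE 0.15, adjusted p = 0.0278). The others were *Cox7a2* with 0.29, *Sdhd* with 0.23, *Atp5d* with 0.22, *Cox8a* with 0.22, *Sdhc* with 0.21 and *Uqcrfs1*, the Rieske protein of complex III, with 0.20. The 2 that fell were *mt-Nd2*, by 0.23 (adjusted p = 0.0404), and *mt-Cytb*, the mitochondrial subunit of complex III, by 0.23 on the log2 scale (adjusted p = 0.038). With Sham 1 included 0 nuclear and 0 mitochondrial members passed, and the nuclear calls were 0 without Sham 2, 2 without PEL_3d 3, 4 without Sham 3 and 14 without PEL_3d 1. The mitochondrial calls were 0 without Sham 2 or PEL_3d 1 and 1 without Sham 3. In a fit of all hypothalamic libraries of these operations and times with GH as a term, 26 nuclear members were higher and 2 lower, against 31.2% and 29.7% of all genes, and *mt-Nd2* was the only mitochondrial member called (-0.16, adjusted p = 0.0418). With Sham 1 in that fit, 7 nuclear members were higher and 0 lower, against 24% and 17.0% of all genes, with *Atp5g2* at 0.48 (adjusted p = 0.000311), and 0 mitochondrial members passed (2 lower at an unadjusted p under 0.05).

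The promoters of *Atp5g2* and *Atp5k* are printed because *Atp5g2* rose at day 3 with and without GH, and *Atp5k* had the largest rise with GH, described next. They are again 250 bases before the RefSeq start on GRCm38.p6, minus strand, at chr15:102671048-102671297 and chr5:108434400-108434649, with the NRF1 core in capitals.
Atp5g2: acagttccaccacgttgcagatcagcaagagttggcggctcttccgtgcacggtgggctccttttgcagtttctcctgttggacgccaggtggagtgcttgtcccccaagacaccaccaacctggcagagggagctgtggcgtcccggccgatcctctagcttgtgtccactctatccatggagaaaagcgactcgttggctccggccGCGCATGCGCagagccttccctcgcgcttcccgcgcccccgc
Atp5k: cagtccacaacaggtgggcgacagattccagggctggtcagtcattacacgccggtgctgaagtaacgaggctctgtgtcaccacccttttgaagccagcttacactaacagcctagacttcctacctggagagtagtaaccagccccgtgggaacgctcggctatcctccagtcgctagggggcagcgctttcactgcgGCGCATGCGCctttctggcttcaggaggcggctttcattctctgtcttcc
The matches lie 42 and 50 bases before the start, nearer to it than that of *Cox6a1*.

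In the GH-treated groups the day 3 comparison gave more calls. Of 91 nuclear members 28 were higher in PEL_3d_GH than in Sham_GH and 3 lower, against 26.9% and 25.2% of all genes, so rises were close to the background in number and falls well below it. By complex, 10 subunits of complex I, 2 of complex II, 5 of complex III, 3 of complex IV and 8 of complex V rose. The nuclear median log2 change was 0.16, beside -0.002 for all genes.

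*Atp5g2* again separated fully, with 107, 95.8 and 101 FPKM in PEL_3d_GH against 64.9, 60.7 and 71.5 in Sham_GH (log2 change 0.60, SE 0.08, adjusted p = 0.000209). *Atp5k*, the e subunit in the membrane part of ATP synthase, had 58.9, 34.8 and 55.7 FPKM against 26.9, 28.9 and 31.1, a log2 change of 0.76 (SE 0.18, adjusted p = 0.00604). Its PEL_3d_GH libraries spread widely, but the lowest of them lay above the highest Sham_GH library. *Atp5e* rose by 0.57, *Atp5mpl*, another small membrane subunit, by 0.57, *Ndufa1*, a small membrane-arm subunit of complex I, by 0.55 and *Uqcr11*, the smallest subunit of complex III, by 0.53 on the log2 scale.

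The 3 members that fell in this comparison were catalytic subunits of complexes II and I and the muscle isoform *Cox6a2*. *Sdha*, the flavoprotein of complex II, had 156, 151 and 167 FPKM in PEL_3d_GH and 180, 175 and 188 in Sham_GH (log2 change -0.22, adjusted p = 0.018). *Ndufv1*, which holds the NADH binding site of complex I, had 61.0, 61.5 and 68.2 against 73.9, 71.7 and 72.0 (log2 change -0.20, adjusted p = 0.045). *Cox6a2* fell by 1.07 on the log2 scale (adjusted p = 0.0406), but its libraries overlapped, with 0.912, 2.60 and 1.48 FPKM against 4.23, 3.71 and 2.37. Of the mitochondrial members *mt-Nd3* was higher, with 3558, 2475 and 2922 FPKM against 2075, 2159 and 2372 (log2 change 0.41, adjusted p = 0.0136), and 0 were lower. The 31 nuclear calls became 14 without Sham_GH 1, 15 without PEL_3d_GH 1 and 16 without Sham_GH 2. The mitochondrial count was 0 without Sham_GH 1, 2 without PEL_3d_GH 1 or PEL_3d_GH 2 and 3 without PEL_3d_GH 3.

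**Figure D3:**
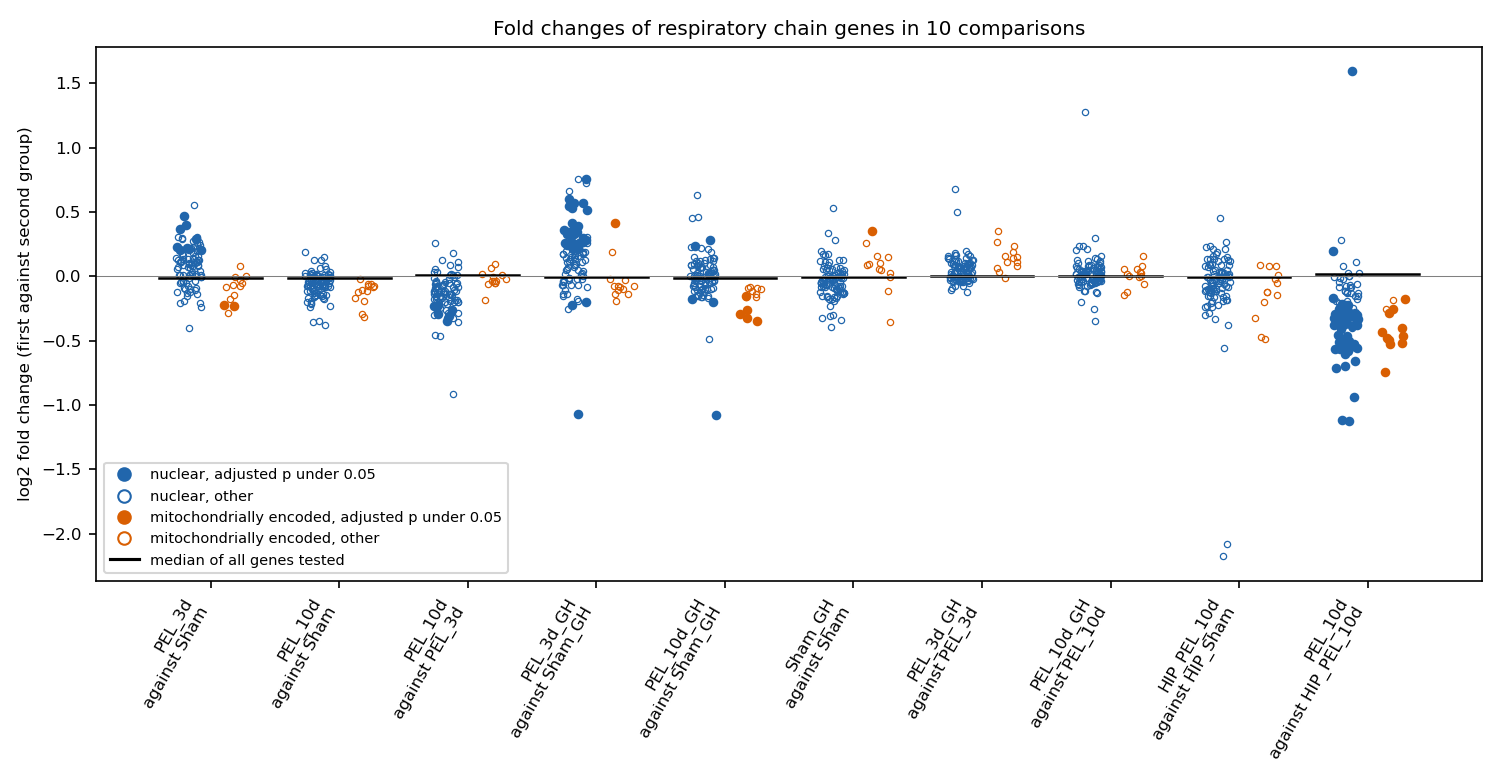
Log2 fold changes of the members (points) on the vertical axis in each of 10 comparisons, nuclear in blue and mitochondrially encoded in orange, filled where adjusted p was under 0.05, with the median of all genes tested as a line. The nuclear members lie mostly above the all-gene median in both day 3 comparisons and below it between the tissues.

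Values within a group also varied with the library. *Atp5k* ran from 37.8 to 62.5 FPKM within PEL_3d, and *Atp5mpl* from 77.5 to 131, while *Atp5a1* ran only from 356 to 363. The median change also varied with transcript length. Other genes with at least 600 and under 1000 bases of annotated exon had a median log2 change of 0.13 in PEL_3d against Sham and 0.35 in PEL_3d_GH against Sham_GH, and the members of that length had 0.11 and 0.18. Among other genes of at least 2000 bases the medians were -0.03 and -0.03, with 0.04 and 0.05 for the members. The part of transcript length in these results was not tested.

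**Figure D4:**
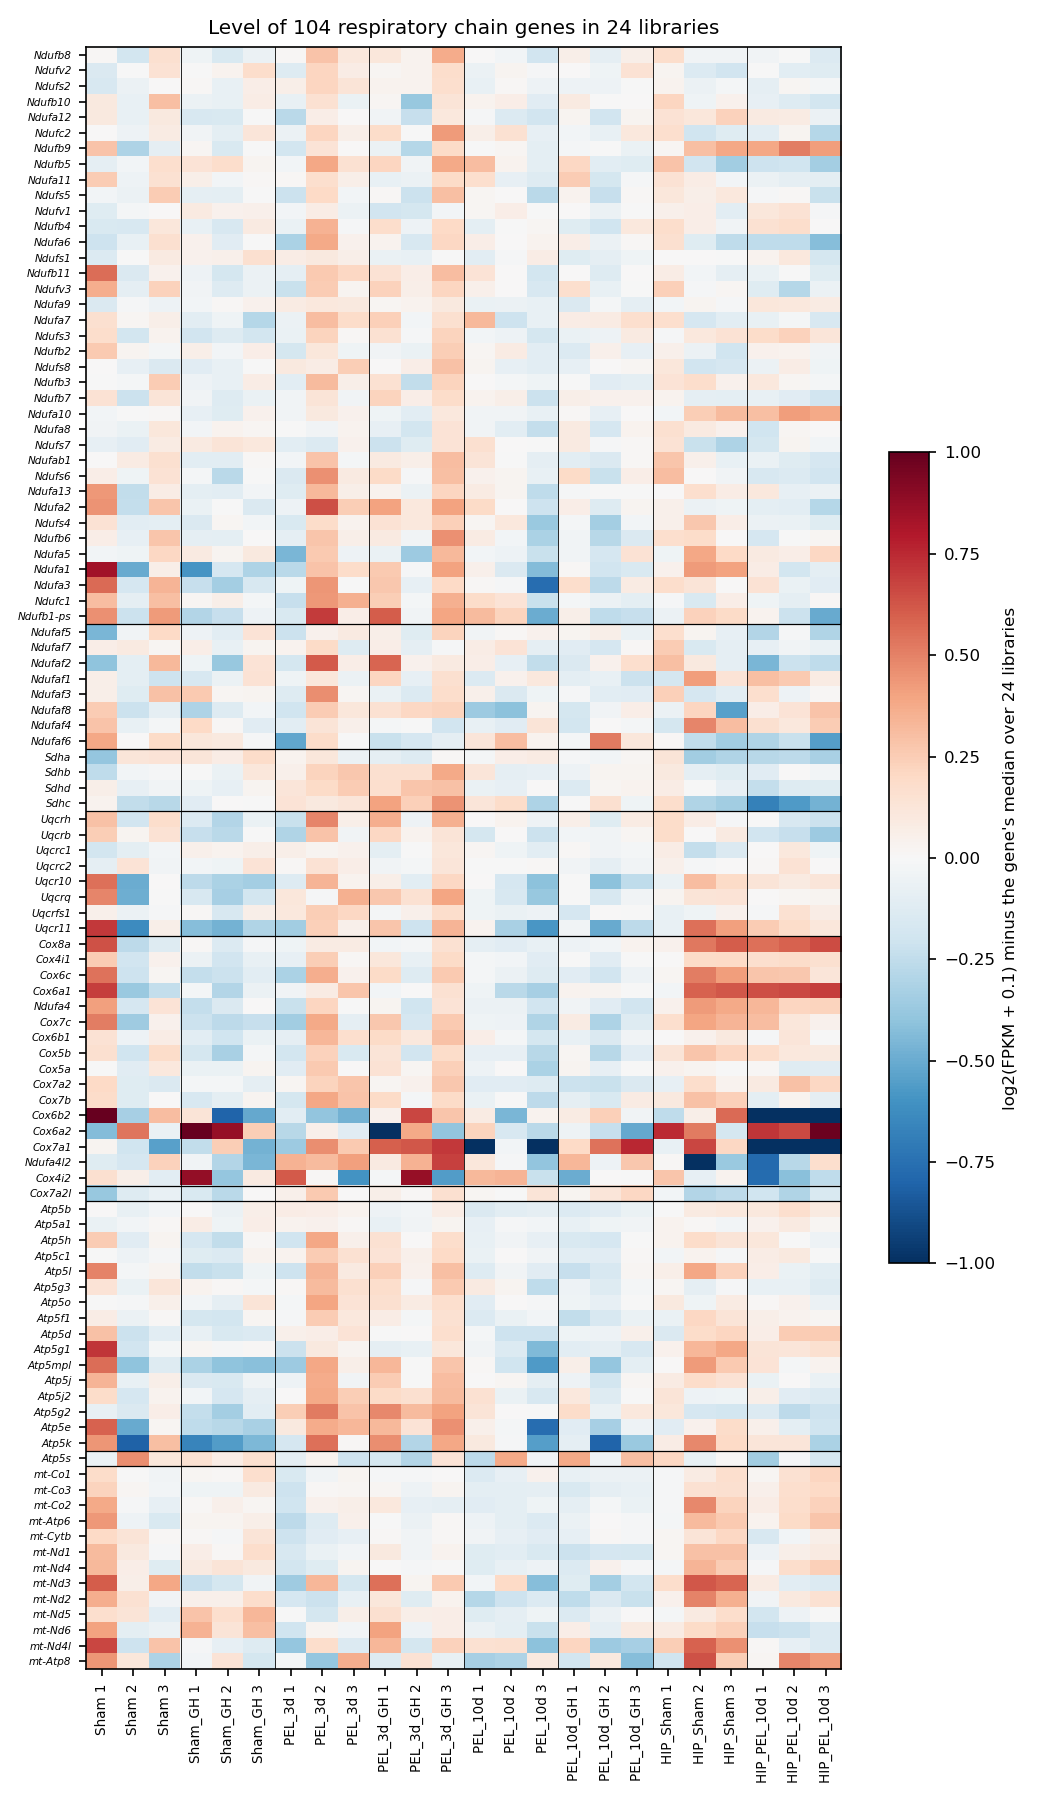
Log2(FPKM + 0.1) of each member in each library minus that member's median over the 24 libraries, with genes in rows by complex, libraries in columns and colours ending at -1 and 1. Sham 1 has the high *Cox6a1* and *Cox8a* values of the hippocampal libraries.

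Cell type markers moved strongly at day 3. Of 14 microglial markers 14 were higher in PEL_3d than in Sham, their sum rising from 454 and 456 CPM in Sham 2 and Sham 3 to 3140 to 4327 in PEL_3d, and 11 of 14 neuronal markers were lower. With GH the counts were 14 of 14 and 11 of 14. Of 80 cytosolic ribosomal proteins 65 were higher in PEL_3d, with a median log2 change of 0.42, and 77 in PEL_3d_GH. Of 78 mitochondrial ribosomal proteins 8 were higher in PEL_3d and 20 in PEL_3d_GH, and 0 were lower in either, beside 22.2% and 26.9% of all genes higher. Of 8 regulators of mitochondrial biogenesis 0 passed in PEL_3d. In PEL_3d_GH *Gabpa*, an ETS factor, was higher by 0.47 (adjusted p = 0.00842), and *Ppargc1a*, the coactivator known as a master regulator of mitochondrial number, fell by 0.57 on the log2 scale (adjusted p = 0.000348), as did *Ppargc1b* by 0.80 and *Esrrg* by 0.57. The difference of the day 3 PEL effect with and without GH, tested as an interaction in edgeR, did not pass for these regulators. Adjusted p was 0.208 for *Ppargc1a*, 0.314 for *Esrrg*, 0.519 for *Gabpa* and 0.618 for *Ppargc1b*. The part of the cell type markers in the members' changes was not tested.

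Between day 3 and day 10 without GH, 7 nuclear members were lower in PEL_10d than in PEL_3d and 0 higher, beside 12.2% and 6.33% of all genes, so the share called was below the background. They were *Uqcrq* with -0.34, *Atp5g2* with -0.31 (adjusted p = 0.034), *Cox7a2* with -0.29, *Sdhc* with -0.26, *Uqcrfs1* with -0.23, *Sdhd* with -0.23 and *Atp5d* with -0.22. *Atp5g2* stood at 83.9, 77.2 and 76.4 FPKM in PEL_10d, below all PEL_3d libraries. The comparison shares its PEL_3d libraries with that of PEL_3d and Sham, and 0 of the 7 passed when PEL_3d 2, PEL_3d 3 or PEL_10d 2 was left out and 2 passed without PEL_10d 3. Of 14 microglial markers 11 were lower in PEL_10d than in PEL_3d, with sums of 1455 to 2501 against 3140 to 4327 CPM, while 4 of 14 neuronal and 7 of 9 oligodendrocyte markers were higher. Of 80 cytosolic ribosomal proteins 26 were lower. Their part in the result was not tested.

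Between PEL_10d and Sham, 0 of 91 nuclear and 0 of 13 mitochondrial members passed the test, whereas 7.97% of all genes were higher and 1.43% lower. At an unadjusted p under 0.05 there were 1 nuclear and 3 mitochondrial members, all lower, and DESeq2 called 0 and 2. With Sham 1 included 0 members passed as well, against 1.81% of all genes higher and 0.0274% lower. In that fit 1 nuclear and 1 mitochondrial member were lower at an unadjusted p under 0.05. Without Sham 1, the 95% interval lay within 1 log2 unit for 88 of 91 nuclear members and within 0.5 for 75. *mt-Nd2*, the closest of the mitochondrial members to the threshold, had 1778, 1879 and 1971 FPKM in PEL_10d against 2406 and 2111 in Sham 2 and Sham 3 (log2 difference -0.29, adjusted p = 0.0683). Its groups did not overlap. With GH as a term in a fit that added the GH-treated libraries, 6 of 13 mitochondrial members were lower and 0 higher, against 15.2% and 20.0% of all genes, led by *mt-Nd2* with -0.30 (SE 0.05, adjusted p = 0.000354) and *mt-Nd1* with -0.25. Of the nuclear members 2 were higher (*Cox7a2l* 0.19 and *Atp5g2* 0.18) and 4 lower (*Cox6a2* -0.76, *Atp5g1* -0.16, *Ndufs1* -0.15 and *Sdha* -0.13) in that fit. With Sham 1 in it, 3 mitochondrial members were lower (*mt-Nd2*, *mt-Nd1* and *mt-Nd5*) and of the nuclear members *Cox7a2l* alone passed, against 2.58% of all genes lower and 10.9% higher. In PEL_10d against Sham 2 and Sham 3, 12 of 14 microglial, 4 of 9 astrocyte and 4 of 9 oligodendrocyte markers were higher and 2 of 14 neuronal markers were lower, with microglial sums of 1455 to 2501 CPM against 454 and 456. Their part in the members' values was not tested.

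With GH, 4 of the 7 mitochondrially encoded subunits of complex I were lower at day 10. In PEL_10d_GH against Sham_GH 5 of 13 mitochondrial members fell and 0 rose, against 13.3% and 17.7% of all genes. *mt-Nd5* had 1954, 2057 and 2146 FPKM against 2608, 2408 and 2699 in Sham_GH, with no overlap (log2 change -0.35, adjusted p = 0.00259). *mt-Nd2* had 1813, 1962 and 1849 against 2244, 2242 and 2441 (-0.32, adjusted p = 0.00361), and *mt-Nd1* had 5658, 5840 and 5806 against 6893, 6622 and 7404 (-0.30, adjusted p = 0.0036). *mt-Nd6* fell by 0.26 and *mt-Co1* by 0.16 on the log2 scale (adjusted p = 0.0225 and 0.0482). Without PEL_10d_GH 2, Sham_GH 1 or Sham_GH 3, 3 of the 13 passed.

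Of the nuclear members 2 rose and 3 fell in the same comparison. *Atp5g2* was higher, with 87.5, 73.3 and 82.7 FPKM against 64.9, 60.7 and 71.5 (log2 change 0.28, adjusted p = 0.0293), and so was *Cox7a2l*, which joins complexes III and IV into supercomplexes, by 0.23. *Cox6a2* fell by 1.08 on the log2 scale, with 1.91, 1.67 and 1.36 FPKM against 4.23, 3.71 and 2.37. *Ndufs1*, the largest iron-sulfur subunit of complex I, fell by 0.20 (adjusted p = 0.018), and *Cox7a2* by 0.17 on the log2 scale (adjusted p = 0.0476). The nuclear calls were 1 without PEL_10d_GH 3, Sham_GH 1 or Sham_GH 2 and 3 without PEL_10d_GH 2. The nuclear median log2 change was 0.004 and the mitochondrial -0.16, beside -0.01 for all genes. *Ppargc1a* and *Ppargc1b* were lower, as at day 3 (log2 changes -0.285 and -0.595, adjusted p = 0.0395 and 0.0294). Here 14 of 14 microglial and 9 of 9 oligodendrocyte markers were higher, 10 of 14 neuronal markers were lower and 64 of 80 cytosolic ribosomal proteins were higher. Their part in the result was not tested.

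**Figure D5:**
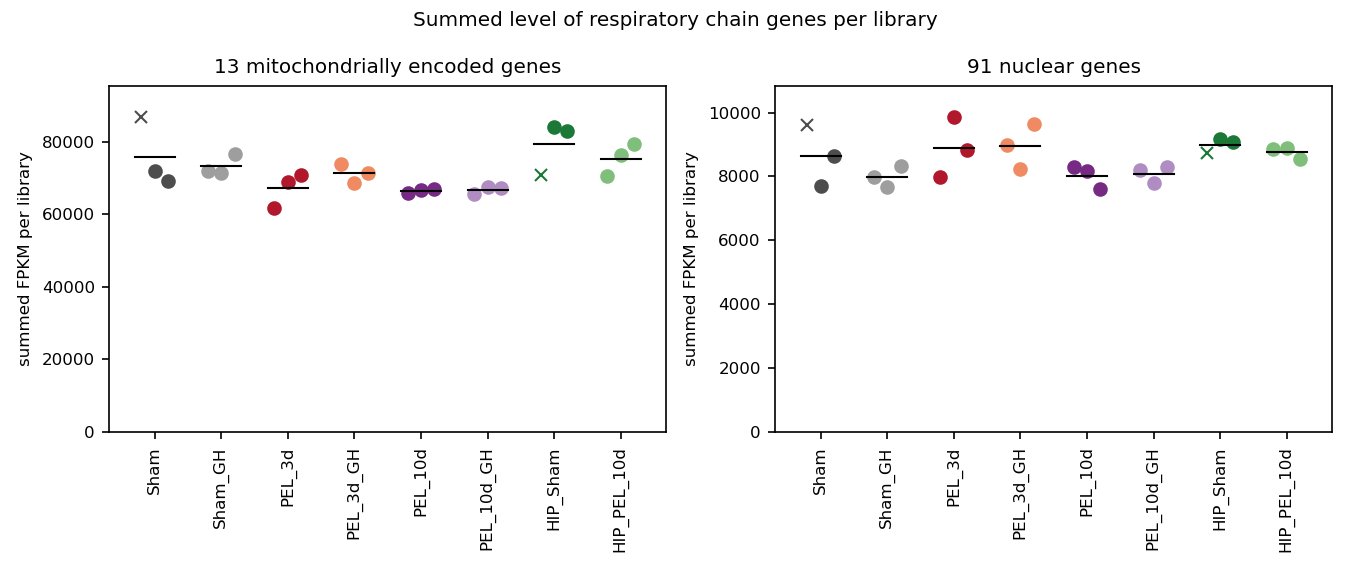
Summed FPKM of the nuclear members and of the mitochondrially encoded members (vertical axes) in each library by group, with the mean of all 3 libraries as a bar and an x for Sham 1 and HIP_Sham 1. The nuclear sum reaches 8558 to 8877 in HIP_PEL_10d against 7618 to 8280 in PEL_10d, and the mitochondrial sum 70504 to 79360 against 65836 to 66905.

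GH itself, compared within each operation and time, gave 1 call among the members. In Sham_GH against Sham 0 nuclear members passed, whereas 0.798% of all genes were higher and 0.296% lower at the same adjusted threshold. At an unadjusted p under 0.05, 3 nuclear members were higher and 3 lower. Of the mitochondrial members, *mt-Nd6*, *mt-Nd5*, *mt-Atp6* and *mt-Nd4* were higher at that unadjusted threshold. *mt-Nd3* was lower (log2 change -0.36, adjusted p = 0.0614). The 1 mitochondrial member that passed the adjusted threshold was *mt-Nd6*, with 1629, 1403 and 1576 FPKM in Sham_GH against 1199 and 1233 in Sham 2 and Sham 3 (log2 change 0.36, SE 0.06, adjusted p = 0.022). Sham 1 held 1697 FPKM, above every Sham_GH library, and with it included 0 members passed, as was so for the mitochondrial members without Sham 3, Sham_GH 1 or Sham_GH 3. Without Sham 2, 1 nuclear member passed. In PEL_3d_GH against PEL_3d 0 members passed, beside 0.027% of all genes higher and 0.0% lower, and in PEL_10d_GH against PEL_10d 0 members passed and 0.0% of all genes did. In each of these, 2 nuclear and 0 mitochondrial members had an unadjusted p under 0.05, and DESeq2 called 0 members. The difference of the PEL effect with and without GH, tested as an interaction, passed for 0 members at day 3 (smallest adjusted p = 0.314), where 0.00659% of all genes had a higher and 0.0396% a lower value, and for 0 at day 10 (smallest adjusted p = 0.383), where 0.0% of all genes did. With Sham 1 included 0 members passed at either time. The larger number of calls with GH was thus not shown to be a larger effect.

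In the hippocampus 0 of the nuclear and 0 of the mitochondrial members passed between HIP_PEL_10d and HIP_Sham, and 0.0% of all genes did. At an unadjusted p under 0.05, 6 nuclear and 1 mitochondrial member were lower, and DESeq2 called 1 nuclear member. No share of all genes is given for these counts. Without HIP_Sham 1, 5 nuclear members and 5 mitochondrial members were lower, against 4.07% of all genes lower and 2.09% higher. These were *Cox6b2* with -2.30, *Ndufa1* with -0.50, *Atp5l* with -0.37, *Cox7b* with -0.34 and *Uqcrb* with -0.33, and *mt-Nd3* with -0.67, *mt-Nd4l* with -0.62, *mt-Nd6* with -0.43, *mt-Nd2* with -0.38 and *mt-Nd1* with -0.28. *mt-Nd3* measured 2572, 2268 and 2214 FPKM in HIP_PEL_10d and 3734 and 3637 in HIP_Sham 2 and HIP_Sham 3. *Ttr*, a marker of the choroid plexus, the secretory tissue that projects into the brain's ventricles, differed between the same libraries. It was 4157 and 5224 FPKM in HIP_Sham 2 and HIP_Sham 3 against 116, 28.5 and 767 in HIP_PEL_10d. Of 9 choroid plexus markers 8 were lower in HIP_PEL_10d, while 2 of 14 microglial markers passed, both higher, with microglial sums of 587 to 736 CPM against 505 and 512. Of 14 neuronal markers 1 was higher and 2 were lower. Their part in the result was not tested.

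The change from sham to day 10 differed between the tissues for 2 members when Sham 1 and HIP_Sham 1 were left out (interaction in a fit of both tissues), against 6.52% of all genes with a higher and 4.22% with a lower value in the hypothalamus. *Cox6b2* had 2.29 and 3.63 FPKM in Sham and 3.10, 2.10 and 2.99 in PEL_10d, but 3.04 and 4.37 in HIP_Sham and 0.651, 0.925 and 0.842 in HIP_PEL_10d. Only the hippocampal groups were apart, and the difference of the log2 changes was 2.21 (SE 0.55, adjusted p = 0.0262). *mt-Nd6* had 1199 and 1233 FPKM in Sham and 1231, 1196 and 1096 in PEL_10d, against 1466 and 1511 in HIP_Sham and 1094, 1107 and 1165 in HIP_PEL_10d, a difference of 0.33 (SE 0.09, adjusted p = 0.0358). With all libraries 0 members passed. The nuclear call was lost without Sham 2, Sham 3, PEL_10d 3 or HIP_Sham 3, and the mitochondrial one without Sham 2, Sham 3, PEL_10d 1, PEL_10d 2, HIP_Sham 2, HIP_Sham 3 or HIP_PEL_10d 2, while 2 mitochondrial members passed without PEL_10d 3.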

How the data were processed

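Hypothalamic and hippocampal RNA was sequenced from 24 mouse libraries. The authors deposited estimated counts and FPKM values per gene. Per the labels and the study's methods, libraries were made with a SMARTER mRNA-seq kit, reads were aligned with Hisat2 v2.0.5 to GRCm38 (mm10, from the submitters' processing notes) and counted with featureCounts v1.5.0-p3, and the study tested with DESeq2 1.10.1. Of the deposited count values 8.22% were not whole, and these were rounded. Per the file headers, FPKM is normalised to length and depth, and it was used for levels only.

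Pairs of groups were tested with edgeR 4.0.16 (limma 3.58.1, R 4.3.3), with TMM scaling, filterByExpr at a minimum count of 10, quasi-likelihood tests and Benjamini-Hochberg adjustment over all genes tested at 0.05. SE, intervals and log2 changes come from these fits. Counts at an unadjusted p under 0.05 and counts by DESeq2 are given without a share of all genes, and so without a background. Sham 1 was left out of comparisons with Sham, since the study left out a Sham library and Sham 1 lacks *Avp*, and HIP_Sham 1 was left out only where stated. The comparisons of Sham with HIP_Sham, the terms for GH, their fits with Sham 1 and the length classes were added after the data were seen. Alternatives were DESeq2 1.42.0, other scalings and filters, a replicate block, 1 fit over all groups, and leaving out each replicate. Same-numbered libraries did not pair in any comparison. The procedure was tested on simulated data.

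Members, lists and tests were chosen with earlier results of these data known. Named were all mitochondrial members, core subunits of each complex, isoform pairs, and in each comparison up to 5 rises and 5 falls with the largest change whose libraries did not overlap; other genes were named after their values were seen. Of 22274 genes 22219 had a symbol. Promoters are from RefSeq, GRCm38.p6. Sequence matches are descriptions. Depth was 15095267 to 17973494 counts per library, and 43 members share exon bases with another gene, which limits their counts.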

Additional observations from a re-analysis of the deposited data

Results flagged for a closer look

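The change from sham to day 10 differed between hypothalamus and hippocampus for *Cox6b2*, the testis form of a complex IV subunit, by 2.21 on the log2 scale (edgeR's interaction test, adjusted p = 0.0262), and for *mt-Nd6* by 0.33 (adjusted p = 0.0358). Both values were obtained without Sham 1 and HIP_Sham 1. *Cox6b2* rested on 5, 8 and 6 counts in the HIP_PEL_10d libraries, and *Ttr*, a choroid plexus gene, was at 4157 and 5224 FPKM in HIP_Sham 2 and HIP_Sham 3 against 116, 28.5 and 767 in HIP_PEL_10d. The part of choroid plexus tissue in this difference was not tested.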

How the results depend on the processing

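For PEL_3d against Sham, the number of nuclear members called, 9 as reported, was 20 with a replicate block, 0 with all 3 Sham libraries and 28 with GH as a term, and that of mitochondrial members, 2 as reported, was 0 under total-count scaling, 1 at a mean count of at least 50, 0 with the replicate block, 0 with all 3 Sham libraries, 1 with GH as a term and 0 with that term and Sham 1. For PEL_10d against Sham, GH as a term gave 6 nuclear and 6 mitochondrial members, 1 and 3 with Sham 1, and DESeq2 gave 2 and 1 fit over all groups 1 mitochondrial member. For PEL_10d against PEL_3d, DESeq2 gave 11 and 1 fit 12 nuclear members. For Sham_GH against Sham, the mitochondrial count was 3 without a filter, 2 with the replicate block, and 0 with 1 fit and with all 3 Sham libraries. For PEL_3d_GH against Sham_GH it was 3 with DESeq2 and 2 with the replicate block, and for PEL_10d_GH against Sham_GH 3 with 1 fit. DESeq2 called 1 nuclear member in the hippocampus. Total-count scaling left 30 nuclear calls between the tissues, 54 as reported, and all Sham libraries in place of PEL_10d left 0 nuclear and 0 mitochondrial calls. In the tissue difference, *Cox6b2* was lost at a mean count of at least 50, and 0 nuclear and 0 mitochondrial members passed with all libraries. A sign turned for *Cox6a1* in PEL_3d against Sham (-0.042, adjusted p = 0.959, with all 3 Sham libraries) and for *Cox6b2* between the tissues (-0.605, adjusted p = 0.197, in the Sham libraries). The cause of these shifts was not tested. Leaving out each replicate gave 0 to 14 nuclear and 0 to 2 mitochondrial calls for PEL_3d against Sham, 0 to 7 nuclear for PEL_10d against PEL_3d, 0 to 1 of each for Sham_GH against Sham, 14 to 33 and 0 to 3 for PEL_3d_GH against Sham_GH, 1 to 4 and 3 to 5 for PEL_10d_GH against Sham_GH, 0 to 5 of each in the hippocampus, 50 to 58 and 8 to 11 between the tissues, and 0 to 1 and 0 to 2 for the tissue difference. A lone remaining Sham library was assumed to vary like the other group. The replicate numbers did not pair the libraries, and the replicate block changed no other count by over 1.5 times. For single named genes, 408 values kept direction and side of the threshold, 116 no longer passed and 2 turned. Low isoforms (*Cox4i2*, *Cox6a2*, *Cox6b2*, *Cox7a1*, *Ndufa4l2*) are limited by depth.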
